A study of Mus musculus with 24 samples.

Results

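A group of 10 transcription factor genes that mark the identity of striatal neurons was examined: Foxp1, Foxp2, Bcl11b, Isl1, Ebf1, Meis2, Rarb, Ikzf1, Six3 and Zfp503. They were taken from the read-count table by gene symbol, and the 10 were chosen with earlier results of these data known. All 10 symbols were found once each among 54532 genes, and all 10 were among the 19667 genes that passed the filter on low counts.

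RNA was sequenced from the striatum of 24 C57BL/6 mice, 1 hemisphere and 1 library per animal. WT animals carried neither change, TyrobpKO animals lacked Tyrobp, Q175 animals were heterozygous for the Q175 allele, and Q175_TyrobpKO animals were heterozygous for Q175 and lacked Tyrobp. Each genotype had 6 animals, replicates 1 to 3 male and 4 to 6 female, and the age was not stated. In Q175 mice a lengthened CAG tract replaces the one in the endogenous Htt gene, which models Huntington's disease. Tyrobp encodes a signalling adaptor of microglial receptors. Both Q175 genotypes keep a normal Htt allele. Animal numbers carried a prefix that was shared by both genotypes lacking Tyrobp, another shared by all Q175 animals and WT replicate 3, and a further one on the other 5 WT animals. What the prefixes mark was not stated. A difference tied to them cannot be told apart from Tyrobp genotype, and only in part from the Q175 allele against WT.

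Most neurons of the striatum are inhibitory projection neurons. Those of the direct pathway carry dopamine D1 receptors and those of the indirect pathway carry D2 receptors. Their identity is set in the embryo and held in the adult by transcription factors. Foxp1 and Foxp2 are forkhead proteins, the first found in both kinds of projection neuron and the second higher in direct-pathway neurons. Bcl11b (Ctip2) is a zinc finger protein needed for projection neurons to mature, and Meis2 is a homeodomain protein of the TALE class present in both kinds. Isl1, a LIM homeodomain protein, and Ebf1, a helix-loop-helix protein, act in the differentiation of direct-pathway neurons, and Isl1 is also made by cholinergic interneurons. Zfp503 (Nolz1) is a zinc finger protein linked to the direct-pathway fate. Six3 is a homeodomain protein needed for indirect-pathway neurons, Ikzf1 (Ikaros) is a zinc finger protein of enkephalin-positive striatal neurons and of blood-derived cells, and Rarb is a nuclear receptor for retinoic acid that is abundant in striatum.

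The deposited table gives a coordinate for each gene, and for 10 of 10 the chromosome, start, end and strand were those of GENCODE release M21 on the mouse build GRCm38. All 10 are protein-coding. Foxp1 (ENSMUSG00000030067) lies on chromosome 6 from 98925338 to 99522721 on the minus strand, and Foxp2 (ENSMUSG00000029563) on the same chromosome from 14901349 to 15441977 on the plus strand. Bcl11b (ENSMUSG00000048251) spans 107910403 to 108003602 of chromosome 12, minus strand. Isl1 (ENSMUSG00000042258) spans 116298281 to 116309689 of chromosome 13, minus strand. Chromosome 11 holds Ebf1 (ENSMUSG00000057098, 44617317 to 45008091) and Ikzf1 (ENSMUSG00000018654, 11685003 to 11772926), both on the plus strand. Meis2 (ENSMUSG00000027210) spans 115863064 to 116065839 of chromosome 2, minus strand. Rarb (ENSMUSG00000017491, 16430839 to 16819156) and Zfp503 (ENSMUSG00000039081, 21983959 to 21989601) are on the minus strand of chromosome 14, and Six3 (ENSMUSG00000038805, 85613608 to 85629302) is on the plus strand of chromosome 17. Counts are reads per whole gene, so they do not separate exons, introns or isoforms.

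Use of strand in counting was not stated, and 3 of the genes share exon bases with other genes. Of the exon bases of Rarb, 34.1% are also exon bases of Top2b on the opposite strand, which encodes DNA topoisomerase 2 beta and held 102026 reads over the 24 libraries against 28971 for Rarb. Rarb also shares 227 exon bases, or 4.31%, with Gm48162 on the opposite strand, which held 33 reads. Six3 shares 106 exon bases, or 1.95%, with its antisense gene Six3os1 on the opposite strand and 168, or 3.08%, with Gm28528, also on the opposite strand. Six3os1 held 11859 reads and Gm28528 476, against 37404 for Six3. Rarb values are therefore the least certain of the 10, and those of Six3 carry the same doubt over a smaller part of the gene. Foxp1 shares 300 exon bases, or 2.18%, with Gm20696 on its own strand, where use of strand would not separate the reads; Gm20696 held 744 reads against 246357.

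Sequences before the start sites are shown for the genes on which the comparisons below turn, as reference rather than as measured data, since no binding or chromatin was measured. RefSeq start sites on GRCm38.p6 were listed for 9 of the 10 genes, in 13 windows, and Foxp2 was not matched. In the 250 bases before each start, 4 motifs were searched on both strands: the retinoid direct repeat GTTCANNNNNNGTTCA, the forkhead motif TGTTTAC, the MEIS motif TGACAG and the palindromic EBF motif. No match overlapped another. The retinoid repeat is textbook knowledge for Rarb, whose own receptor binds it. It was found in the Rarb window, 52 to 37 bases before the start, and in 0.067% of 32851 windows of that length. The forkhead motif occurred in 3.17% of all windows and the EBF motif in 0.779%, and neither was in the 13 windows. The MEIS motif, in 15.9% of all windows, was in 1 of 3 Foxp1 windows and in the Six3 window. The stretches below run 5′ to 3′ on the strand of the gene, leave out bases annotated as exon (the Rarb window lies wholly in annotated exon, so its motif alone is shown with 6 bases on each side), and have matched letters in capitals.
Rarb, retinoid repeat, minus strand, chr14:16575507-16575534: ggaaggGTTCACCGAAAGTTCActcgca
Foxp1, outermost start, minus strand, chr6:99521163-99521243: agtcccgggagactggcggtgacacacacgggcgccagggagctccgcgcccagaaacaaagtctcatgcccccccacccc
Foxp1, internal start with a MEIS match, minus strand, chr6:99266533-99266765: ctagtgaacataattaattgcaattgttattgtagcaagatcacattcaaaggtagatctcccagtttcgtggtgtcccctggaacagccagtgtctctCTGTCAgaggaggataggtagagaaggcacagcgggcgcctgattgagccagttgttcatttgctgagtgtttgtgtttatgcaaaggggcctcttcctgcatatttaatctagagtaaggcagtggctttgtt
Bcl11b, minus strand, chr12:108003603-108003664: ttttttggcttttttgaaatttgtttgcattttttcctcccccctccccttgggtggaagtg
Zfp503, minus strand, chr14:21989602-21989851: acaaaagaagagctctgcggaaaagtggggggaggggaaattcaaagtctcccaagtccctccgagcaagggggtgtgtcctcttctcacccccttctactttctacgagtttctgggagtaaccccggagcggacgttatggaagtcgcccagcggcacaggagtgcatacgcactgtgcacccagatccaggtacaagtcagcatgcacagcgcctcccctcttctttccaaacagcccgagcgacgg
A match of letters is not a measured site. The windows differed in base composition: the share of G and C over the 250 bases was 60.8% at the outermost Foxp1 start, 44.8% at Bcl11b, 58% at Rarb and 57.2% at Zfp503, against a median of 52.4% over all windows.

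Libraries held 25482686 to 34626720 counts. Levels are given as CPM, the count scaled by library size after TMM, which corrects that size for composition. The targeted gene followed the labels: Tyrobp had 7.89 ± 1.19 CPM in WT and 8.65 ± 2.12 in Q175 (SD, n = 6 each), but 0.213 to 0.445 in the 12 libraries of both deleted genotypes. Htt had 211 to 234 CPM in WT libraries and 138 to 176 in those of Q175. Markers of striatal projection neurons were abundant in every library, at a summed 6313 to 15897 CPM over 12 genes. Markers of cortical excitatory neurons, a sign of how much neighbouring cortex a dissection held, varied 26.7-fold, from 34.6 to 924 CPM summed over 8 genes. They were at 53.5 to 675 CPM in WT (median 442), 428 to 924 in TyrobpKO (median 649), 45.6 to 768 in Q175 (median 289) and 34.6 to 888 in Q175_TyrobpKO (median 522). Choroid plexus markers summed to 319 to 584 CPM in the 12 animals without Q175 and in 8 carriers stayed in the range of 343 to 550, but reached 6025 in Q175 replicate 3, 989 in Q175 replicate 5, and 1127 and 1163 in Q175_TyrobpKO replicates 4 and 6. The tests were therefore repeated with the cortical sum as a covariate and without the libraries high in either list, a choice made after these values were seen.

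Levels per kilobase divide CPM by all annotated exon bases of a gene. These come from 31 transcripts for Foxp1 and 1 for Zfp503, so genes can be compared only roughly. On this scale Bcl11b was the highest at 45.5 ± 8.45 CPM per kb (SD, n = 24). Meis2 at 31.9 ± 5.49 and Foxp1 at 26.7 ± 4.89 followed. Each of these 3 exceeded the next gene in 24 of 24 libraries. Six3 was at 10.2 ± 2.48 CPM per kb, Rarb at 8.18 ± 1.81 and Foxp2 at 5.83 ± 0.729. The order of Six3 and Rarb is uncertain, since 34.1% of the Rarb exon bases are shared with Top2b. How reads in shared bases were counted was not stated. Zfp503 at 4.39 ± 0.849 and Isl1 at 4.02 ± 0.963 could not be ordered: the first was higher in 17 of 24 libraries. Ebf1 was at 2.24 ± 0.369 and Ikzf1, the lowest, at 1.61 ± 0.248. Zfp503 and Isl1 were the only neighbours out of order in more than 1 library.

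**Figure D1:**
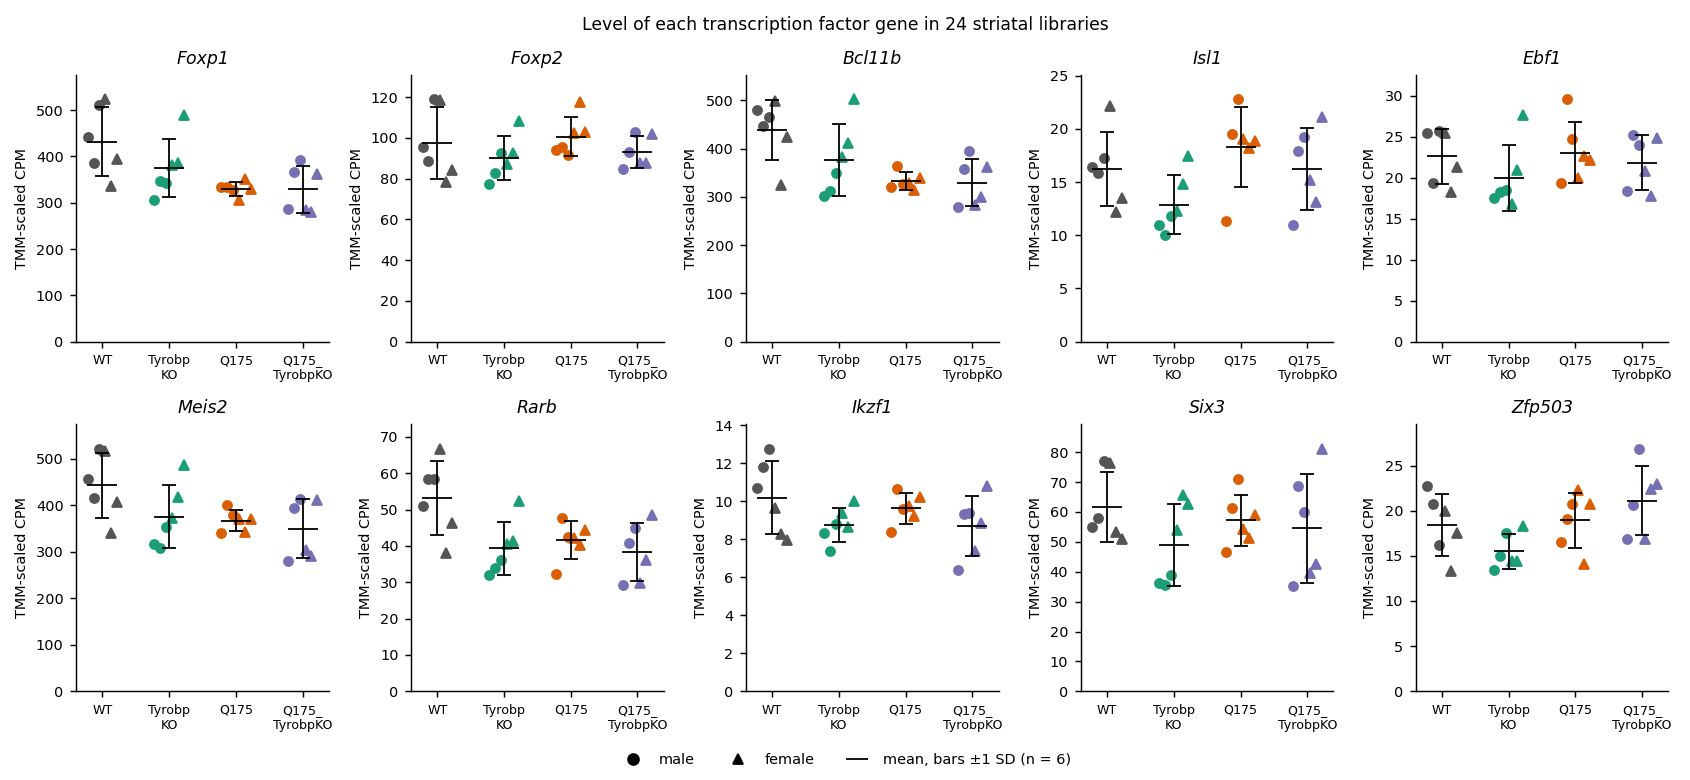
TMM-scaled CPM (linear axis from 0) of each of the 10 genes in 24 libraries, by genotype; points are animals, circles male and triangles female, with the mean and 1 SD. Foxp1 and Bcl11b in Q175 lie in narrow bands of 305 to 350 and 314 to 365 CPM, below 5 of the 6 WT animals.

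Q175 against WT gives the effect of the allele in animals that have Tyrobp. Of the broad factors of projection neurons, Foxp1 fell by 23.2% and Bcl11b fell by 23.9%, and the other 8 genes did not pass the test. Over all genes tested 9.63% were called and 5.47% were called lower, and 2 calls among 10 genes are too few to be told apart from that share. With library size as the only scaling, 30.9% of all called genes were lower, against 56.8% with TMM, and 0 of the 10 genes were called.

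Foxp1 had 337, 418 and 524 CPM in WT libraries (lowest, median, highest) and 305, 331 and 350 in Q175 libraries. Of the 6 WT libraries, 5, at 385 CPM or more, were above every Q175 library, and WT replicate 5 was the exception. Its log2 fold change was −0.38 ± 0.12 (SE; edgeR quasi-likelihood test, adjusted p = 0.0370). Bcl11b had 324, 455 and 498 CPM in WT libraries and 314, 328 and 365 in Q175 libraries. The same 5 WT libraries were above all Q175 libraries. Bcl11b had a log2 fold change of −0.39 ± 0.12 (SE; edgeR adjusted p = 0.0312). WT replicate 5 had the highest cortical marker sum of the WT animals, 675 CPM, and WT replicate 3, which shares the prefix of the Q175 animals, had 510 CPM of Foxp1 and 464 of Bcl11b. The SD of Foxp1 was 14.6 CPM in Q175 and 74.0 in WT, and that of Bcl11b 17.9 and 62.1.

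Both calls lie close to the threshold. Among the 24 fits that leave out 1 library, the log2 fold change of Foxp1 stayed between −0.44 and −0.31 and that of Bcl11b between −0.47 and −0.35, but the Foxp1 call was lost without WT replicate 1, 3 or 4, TyrobpKO replicate 4 or 5, or Q175 replicate 1, 2, 3, 4 or 6 (adjusted p up to 0.116), and the Bcl11b call without WT replicate 1, 2, 3 or 4 or Q175 replicate 1, 3, 4, 5 or 6 (up to 0.0910). Both were also lost without the 4 libraries high in choroid plexus markers, at −0.40 and −0.37 (edgeR adjusted p = 0.102 and 0.137), and held without the 7 libraries above 700 CPM of cortical markers, at −0.37 each (0.0206 and 0.00902). Library size as the only scaling ended both calls, at −0.32 for Foxp1 and −0.33 for Bcl11b (0.0559 and 0.0507), as did no filter on low counts (0.0868 and 0.0803) and females alone, at −0.34 and −0.33 (0.396 and 0.359). In males alone Bcl11b, at −0.45, was called (0.0250) and Foxp1, at −0.42, was not (0.0557). In whole tissue, fewer cells of a type and less RNA per cell cannot be told apart.

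Meis2 and Rarb lay in the same direction without passing the test. Meis2 had 341, 437 and 522 CPM in WT libraries and 341, 371 and 401 in Q175 libraries, with a log2 difference of −0.26 ± 0.12 (edgeR adjusted p = 0.206). Again 5 of 6 WT libraries were above all Q175 libraries. Rarb had 38.1, 54.6 and 66.8 CPM in WT libraries and 32.2, 42.2 and 47.7 in Q175 libraries, with −0.35 ± 0.15 (0.149), and 4 of 6 WT libraries were above all of Q175. Top2b, with which Rarb shares exons, had 150 ± 12.7 CPM in WT animals and 152 ± 11.9 in Q175 animals (SD, n = 6 each). When the cortical marker sum entered the model as a covariate, 4 of the 10 genes were called lower, against 7.27% of all genes: Foxp1 at −0.42 (edgeR adjusted p = 0.00390), Bcl11b at −0.44 (0.00294), Rarb at −0.42 (0.00273) and Meis2 at −0.32 (0.0144). What the covariate removes besides cortex was not tested.

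The factors of a single projection neuron type showed values nearer to 0. Foxp2 had 78.2, 92.1 and 119 CPM in WT libraries and 91.5, 99.0 and 118 in Q175 libraries, a log2 difference of 0.05 (95% interval −0.15 to 0.25). Ebf1 differed by 0.04 (−0.23 to 0.30) and Zfp503 by 0.05 (−0.22 to 0.32). Isl1 had 12.2, 16.1 and 22.2 CPM in WT libraries and 11.4, 19.0 and 22.8 in Q175 libraries, a difference of 0.18 (−0.18 to 0.54). Among the factors of indirect-pathway neurons, Six3 differed by −0.10 (−0.53 to 0.33) and Ikzf1 by −0.07 (−0.32 to 0.18). These intervals leave room for changes of the size seen for Foxp1 in Six3 and, upward, in Isl1. The groups overlapped for all 6 genes. Cholinergic interneuron markers, relevant to Isl1, summed to a median of 138 CPM in WT and 121 in Q175, with 0 of 6 called. With the cortical covariate 3 of 6 were called lower, while Isl1, at 0.08, was not called.

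**Figure D2:**
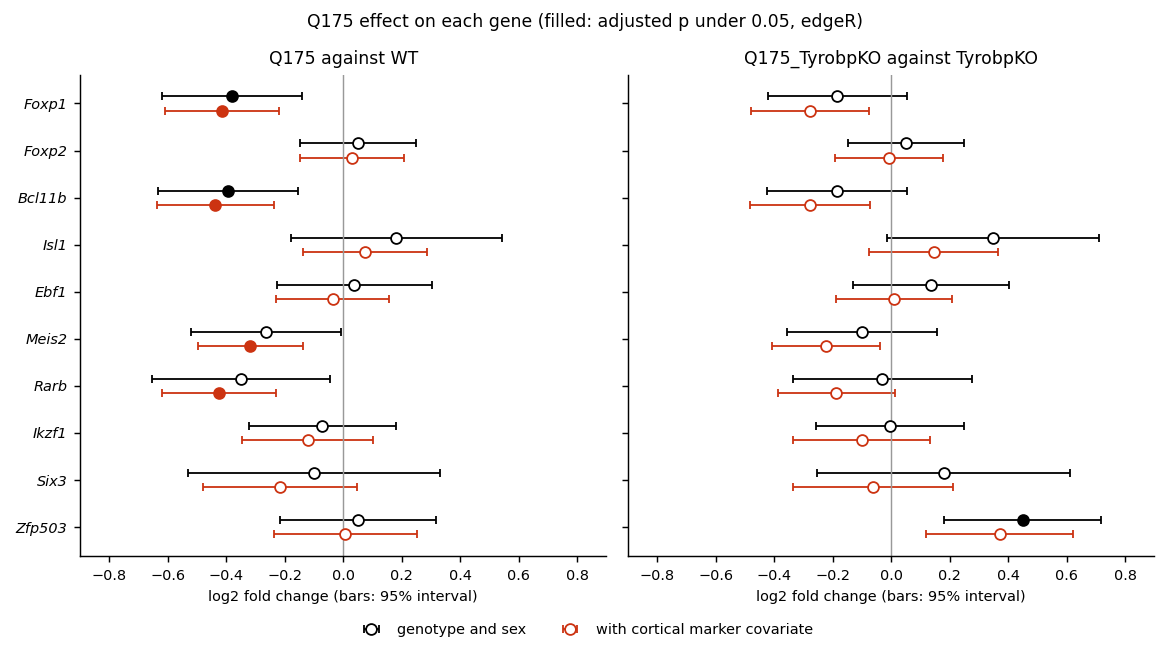
Log2 fold change with 95% interval for Q175 against WT (left) and Q175_TyrobpKO against TyrobpKO (right), in the model of genotype and sex (black) and with the cortical marker sum added (red); filled points have an edgeR adjusted p under 0.05. Foxp1 and Bcl11b are filled in both models on the left, Meis2 and Rarb on the left with the covariate alone, and Zfp503 on the right without it.

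Q175_TyrobpKO against TyrobpKO, which share a prefix, gives the effect of the allele where Tyrobp is missing. Of the 10 genes 1 was called, Zfp503, which was higher by 36.5%. Over all genes 5.86% were called and 2.78% were called higher, so a single call is near the background. Zfp503 was at 13.5, 14.7 and 18.3 CPM in TyrobpKO and 16.9, 21.5 and 26.9 in Q175_TyrobpKO. Of 6 Q175_TyrobpKO libraries, 4 were above all TyrobpKO libraries, and 4 of 6 TyrobpKO libraries were below all Q175_TyrobpKO libraries. Its log2 fold change was 0.45 ± 0.13 (edgeR adjusted p = 0.0382). The call was lost without TyrobpKO replicate 1, 2, 4 or 5 or Q175_TyrobpKO replicate 2, 3, 5 or 6, with values of 0.37 to 0.52 over all omissions and an adjusted p up to 0.111, and with the cortical covariate it was 0.37 (0.0629). It was also lost without a filter on low counts, at 0.45 (edgeR adjusted p = 0.0914), in males alone at 0.49 (0.258), in females alone at 0.41 (0.387), without the libraries high in cortical markers at 0.50 (0.238) and without those high in choroid plexus markers at 0.49 (0.0651).

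Foxp1 in this pair was at 306, 364 and 490 CPM without the allele and 280, 325 and 393 with it, a log2 difference of −0.18 (95% interval −0.42 to 0.05). Bcl11b was at 302, 365 and 503 CPM against 279, 328 and 396, a difference of −0.19 (−0.43 to 0.05). Both were not called (edgeR adjusted p = 0.428 and 0.422), and the ranges overlapped in part. For each gene 3 Q175_TyrobpKO libraries were below every TyrobpKO library. Above every Q175_TyrobpKO library lay 1 TyrobpKO library for Foxp1 and 2 for Bcl11b. In males alone both turned direction, to 0.0753 and 0.10, and in females alone they were at −0.43 and −0.45, not called. The 3 Q175_TyrobpKO libraries with the least of both genes, replicates 1, 4 and 5, had cortical sums of 888, 739 and 760 CPM, while replicates 2, 3 and 6 had 304, 185 and 34.6. Rarb differed by −0.03, Meis2 by −0.10, Six3 by 0.18 and Isl1 by 0.35, the last with an interval of −0.02 to 0.71 (edgeR adjusted p = 0.299). With the covariate, where 7.94% of all genes were called, Foxp1 and Bcl11b were both at −0.28 (0.0844 and 0.0897) and 0 of 10 genes were called, with 4 at an unadjusted p under 0.05; without it DESeq2 and limma-voom called 1 each, Zfp503.

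Whether the Q175 effect depended on Tyrobp was tested directly as an interaction. By edgeR 0 of 10 genes were called, 0% of all genes, with 1 of the 10 at an unadjusted p under 0.05, and DESeq2 and limma-voom also called 0. That gene was Zfp503, with a log2 interaction of 0.40 ± 0.18 (edgeR adjusted p = 0.999). The interaction was 0.20 for Foxp1 (95% interval −0.14 to 0.53) and 0.21 for Bcl11b (−0.13 to 0.54). A call in 1 background and not in the other is therefore not shown to be a difference between them.

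All 12 Q175 carriers were then set against all 12 non-carriers, as the mean of both Q175 effects. Foxp1 fell by 17.8% and Bcl11b fell by 18.2%, in libraries that include those of the first comparison. Of all genes 18.0% were called and 9.17% were called lower. Foxp1 had a log2 fold change of −0.28 ± 0.08 (SE; edgeR adjusted p = 0.0170) and Bcl11b by −0.29 ± 0.08 (0.0147). Both calls held in each of the 24 fits without 1 library (adjusted p up to 0.0428 and 0.0361), and both were lost in males alone, at −0.17 each (0.251 and 0.208). In females alone Bcl11b kept its call at −0.39 (0.0383) and Foxp1, also at −0.39, did not (0.0632). Without the 4 libraries high in choroid plexus markers Foxp1 and Bcl11b were at −0.29 and −0.26 (0.0685 and 0.0924), while Zfp503, at 0.30, was called (0.0496). Zfp503 was at 0.25 ± 0.09 (edgeR adjusted p = 0.0603), called by DESeq2 (0.0441) and not by limma-voom (0.0647). It was also called with library size only, at 0.31 (0.0176), and in 6 of the 24 fits without 1 library, those that omit Q175_TyrobpKO replicate 1 or 4, replicate 1 or 5 of Q175, replicate 6 of TyrobpKO, or replicate 1 of WT. Isl1 was at 0.26 (0.153), Meis2 at −0.18 (0.168), Rarb at −0.19 (0.233), and Foxp2, Ebf1, Ikzf1 and Six3 lay between −0.04 and 0.09. With the cortical covariate 4 genes were called lower, against 10.6% of all genes: Foxp1 at −0.35 (0.000643), Bcl11b at −0.36 (0.000580), Rarb at −0.31 (0.00193) and Meis2 at −0.27 (0.00282).

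Loss of Tyrobp alone, TyrobpKO against WT, gave 0 of 10 called genes by edgeR, DESeq2 and limma-voom, against 0.117% of all genes by edgeR. All 10 log2 fold changes were negative, from −0.44 to −0.11 with a median of −0.23, and 1 had an unadjusted p under 0.05. Of all genes in this fit of all libraries, 49.7% were below 0 and 6.45% had an unadjusted p under 0.05. A single such gene of 10 is therefore near the background. Within genotype and sex the 10 genes moved together, with a median Pearson's r of 0.75 over their 45 pairs. The 10 negative signs are therefore not 10 separate results. The number of the 10 with an unadjusted p under 0.05 was 8 without TyrobpKO replicate 6, 7 without WT replicate 5 and 3 without WT replicate 6. It was 2 without WT replicate 3 or Q175 replicate 1, and 4 by DESeq2 or with the 2 genotypes fitted alone. The gene with an unadjusted p under 0.05 in the fit of all libraries was Rarb, at 32.0, 38.3 and 52.4 CPM in TyrobpKO against 38.1, 54.6 and 66.8 in WT, a difference of −0.44 ± 0.15 (edgeR adjusted p = 0.749). Cortical markers moved with these values: 3 of 6 TyrobpKO libraries, replicates 1, 2 and 3, had 716 to 924 CPM, above every WT library. With the cortical sum as a covariate the median over the 10 genes was −0.13 and Rarb was at −0.28 (0.998). Without the libraries above 700 CPM, which leaves 3 TyrobpKO animals, all female, Bcl11b, Ebf1 and Six3 were at 0.0289, 0.0305 and 0.0028, and the other 7 genes were below 0, from −0.22 for Rarb and −0.16 for Zfp503 to −0.0107 for Meis2. In females alone 7 of the 10 values were above 0. In males alone, where the 3 TyrobpKO libraries are those above 700 CPM, all 10 were below 0 with an unadjusted p under 0.05, and Bcl11b was called lower.

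In animals with the Q175 allele, loss of Tyrobp gave 0 called genes of 10 by edgeR, DESeq2 and limma-voom, with 0 at an unadjusted p under 0.05 in edgeR and 0.158% of all genes called. The values ran from −0.17 for Isl1 to 0.15 for Zfp503. Foxp1 was at −0.01 (95% interval −0.24 to 0.23) and Bcl11b at −0.02 (−0.26 to 0.22). The sexes did not separate the genes either: 0 of 10 were called in females against males (0.0814% of all genes) and 0 in the interaction of Q175 with sex (0%), with 0 at an unadjusted p under 0.05 in both and 0 by DESeq2 and limma-voom. Foxp1 and Bcl11b had interactions with sex of −0.21 ± 0.15 and −0.22 ± 0.14, and Six3 of −0.38 ± 0.27.

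Within genotype and sex, each of the 10 genes was lower in libraries with more cortical marker RNA. How many of all genes tested have such a relation was not examined, so it is not shown to be particular to the 10. Over 24 libraries, after removal of the mean of each genotype and sex, Pearson's r with the log2 cortical sum was −0.89 for Isl1 (Spearman's rho −0.89), −0.87 for Six3 (−0.90), −0.86 for Rarb (−0.82) and −0.81 for Meis2 (−0.83). Ikzf1 had −0.76 (−0.80), Ebf1 −0.72 (−0.76), Bcl11b −0.70 (−0.72), Foxp1 −0.67 (−0.65), Foxp2 −0.59 (−0.64) and Zfp503 −0.50 (−0.47). In a family of 10 relations, 2-sided permutation tests within genotype and sex (100000 resamples) gave adjusted p from 1e-04 to 0.0288 for r and 2e-04 to 0.0412 for rho. The raw p was 2e-05 for Isl1 and 0.0288 for Zfp503 for r, and 0.00011 and 0.0412 for rho. Without the 2 libraries farthest from the median cortical sum, Q175_TyrobpKO replicate 6 and Q175 replicate 3, r stayed between −0.88 (Isl1) and −0.48 (Zfp503). Isl1 fell by 0.19 on the log2 scale for each doubling of the cortical sum, Six3 also by 0.19, Rarb by 0.15 and Foxp1 by 0.09. The part of these relations in the group differences was tested only through the covariate fits above.

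**Figure D3:**
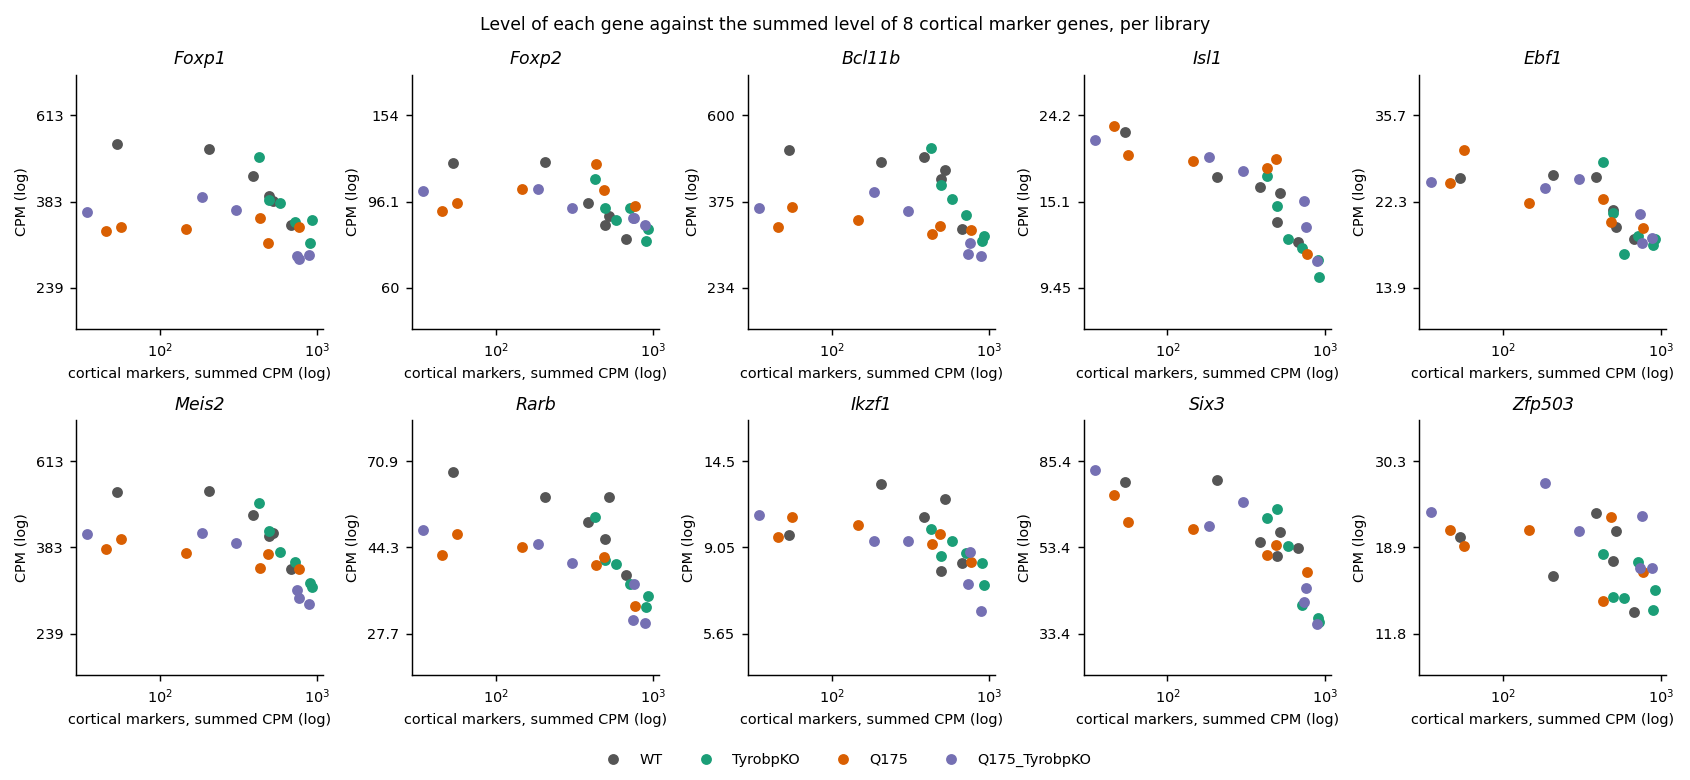
CPM of each gene against the summed CPM of 8 cortical marker genes in each library, both axes logarithmic, coloured by genotype. Isl1 and Six3 fall along a single band from left to right, while for Foxp1 and Bcl11b all Q175 libraries (orange) lie below the 5 WT libraries (grey) with sums of 53.5 to 522 CPM.

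After removal of the mean of each genotype and sex, the 10 genes also moved together. All 45 pairs had a positive Pearson's r over the 24 libraries, from 0.29 to 0.93 with a median of 0.75, and 29 exceeded 0.7. Foxp1 and Foxp2 were the closest pair (r = 0.93, rho = 0.94), then Bcl11b and Meis2 (0.92, 0.92). The 4 lowest values were all of Zfp503, whose r was 0.29 with Foxp2, 0.39 with Ebf1, 0.41 with Foxp1 and 0.43 with Six3, though 0.75 with Bcl11b. These values are a description, since the points share the cortical variation and the library.

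**Figure D4:**
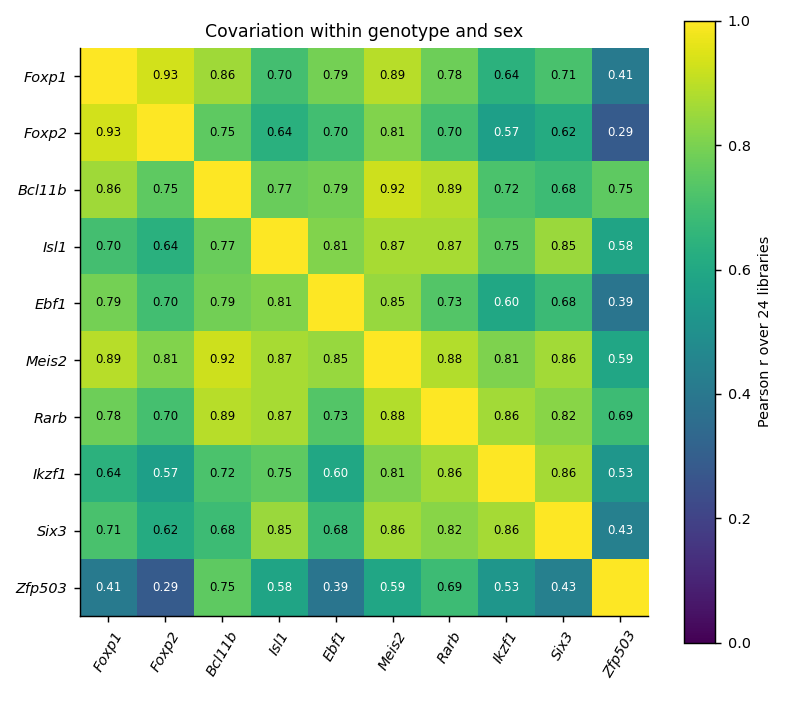
Pearson's r between the 10 genes over 24 libraries after removal of the mean of each genotype and sex, from 0 (dark) to 1 (yellow). The last line, Zfp503, holds the 4 lowest values, 0.29 to 0.43, and Foxp1 with Foxp2 the highest, 0.93.

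The gene outside the 10 with the most similar pattern was named for each, by the same r over 24 libraries. For Foxp1 it was Ppp1r9a (r = 0.96), which encodes the actin-binding protein neurabin, for Foxp2 Slmap (0.96), for Bcl11b Phactr1 (0.95), a regulator of phosphatase and actin, and for Meis2 Spock3 (0.97), a secreted proteoglycan. Rarb was closest to Slc32a1 (0.96), the vesicular GABA transporter, Ikzf1 to the serotonin receptor gene Htr1b (0.91), Isl1 to Gm43185 (0.95), Ebf1 to Rbms1 (0.92), Six3 to C130060K24Rik (0.94) and Zfp503 to Tmem164 (0.88). Genes alike within groups could differ in their Q175 values, a difference that was not tested: in carriers against non-carriers Slc32a1 was at 0.14 (edgeR adjusted p = 0.160) while Phactr1 fell by 0.40 (1.62e-06) and Htr1b by 0.64 (0.00488), and Ikzf1 itself was at −0.04.

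The pathway around these factors was followed in lists of related genes, in the same comparison of carriers with non-carriers, where 18.0% of all genes were called and the median gene was at 0.00. The 10 factors had a median of 0.00 as well, in the model of genotype and sex. With the cortical covariate their median was −0.13, with 4 of the 10 called lower. Of 21 paralogues of the 10, 16 were tested, 2 rose and 0 fell (median 0.03): Foxp4, another forkhead relative, rose by 0.24 ± 0.05 in log2 units (edgeR adjusted p = 0.00184) and Meis1, a relative of Meis2, by 0.38 ± 0.10 (0.00755). Of 18 other transcription factors of the striatal lineage, 1 rose and 2 fell (median 0.05). Sox11, a factor of immature neurons, rose by 0.57 ± 0.08 (1.77e-05), while Rxrg, the retinoid X receptor of striatal neurons, changed by −0.62 ± 0.12 (0.000725) and Foxo1 by −0.41 (0.00605). Dlx1, Dlx2, Dlx5 and Dlx6, homeodomain factors of the embryonic striatum, were at −0.10, 0.15, 0.19 and −0.16, all 4 not called.

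Rarb acts with retinoid X receptors on retinoic acid, and 16 other genes of retinoid signalling were listed. Of them 4 fell and 0 rose (median −0.05). Rxrg, also in the preceding list, is the receptor partner among them. The others act on the ligand: Dhrs3, a retinal reductase, at −0.64 ± 0.07 (edgeR adjusted p = 9.39e-08), Aldh1a1, which makes retinoic acid, at −0.39 (0.00504), and Rbp4, a retinol carrier, at −0.30 (0.0144). Cyp26b1, which breaks retinoic acid down, was at 0.43 (0.0560). The receptors Rara, Rarg and Rxrb were at −0.02, −0.10 and −0.07, and Rxra at −0.00097, not called.

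Genes that mark the mature projection neurons, were followed in the same way. Of 12 markers shared by both pathways, 10 fell and 0 rose (median −0.53). Scn4b, a sodium channel subunit, changed by −1.21 ± 0.10 (edgeR adjusted p = 7.23e-09) and Arpp21, a phosphoprotein of projection neurons, by −0.77 ± 0.08 (1.83e-07). Of 7 tested indirect-pathway markers 4 fell (median −0.55), among them Penk, the enkephalin precursor, by −1.01 ± 0.11 (9.48e-07) and the orphan receptor gene Gpr6 by −0.59 ± 0.08 (1.86e-05). Of 8 direct-pathway markers 3 fell (median −0.13), with Chrm4, a muscarinic receptor, at −0.64 ± 0.09 (9.82e-06) and Sfxn1, a mitochondrial serine transporter, at −0.29 ± 0.05 (3.47e-05). Foxp1 and Bcl11b, at −0.28 and −0.29, lay nearer to 0 than each of those 10 shared markers.

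**Figure D5:**
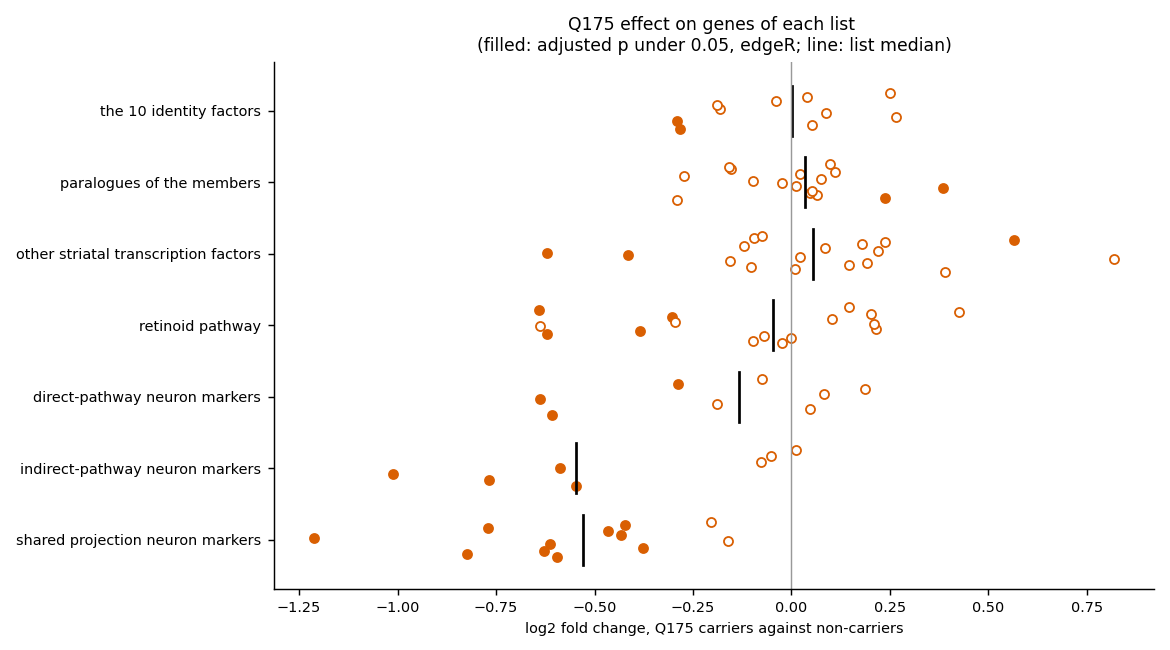
Log2 fold change in Q175 carriers against non-carriers for each tested gene of 7 lists; filled points have an edgeR adjusted p under 0.05 and the black line is the median of the list. In this model of genotype and sex the 10 identity factors are centred near 0.00 with 2 filled points, while shared projection neuron markers have a median of −0.53 with 10 of 12 filled. With the cortical covariate, not drawn, the medians were −0.13 with 4 lower and −0.63 with 12 lower.

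Markers of other cells moved in the same comparison. Astrocyte markers summed to 3685 to 4339 CPM in carriers and 4469 to 5131 in non-carriers, without overlap, with 4 of 8 genes lower and 1 higher. Of the endothelial markers 6 of 8 were lower, of the oligodendrocyte markers 4 of 8 were lower and of the choroid plexus markers 6 of 8 were higher. With the cortical covariate the astrocyte, endothelial and oligodendrocyte counts were the same, but 0 of 8 choroid plexus markers were called. Microglial markers had 0 of 8 called and summed to 251 to 332 CPM in carriers and 232 to 322 in non-carriers, and of 8 lymphocyte markers only Lck passed the filter (0.48 higher, edgeR adjusted p = 0.0391), with up to 5 of 8 at 0 in a library. With the cortical covariate Lck, at 0.40, was not called. The microglial and lymphocyte lists bear on Ikzf1, which those cells also express. Pan-neuronal markers had 1 of 8 called, higher, and cortical markers 0 of 8, with a median of −0.30. The part of these cell types in the results was not tested beyond the fits named above.

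Set among transcription factor genes at large, the share called was near that of all genes. In the table, 1085 tested rows carried a transcription factor family, and 111 of them (10.2%) were called in Q175 against WT, 75 (6.91%) in Q175_TyrobpKO against TyrobpKO and 212 (19.5%) in carriers against non-carriers. The 10 identity factors, with 2, 1 and 2 calls, are too few for their share to be told apart from these. Zfp503, the only call of the 10 in Q175_TyrobpKO against TyrobpKO, carried no such family and is not among those rows.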

How the data were processed

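Per the labels' protocols, striatum of 1 hemisphere was frozen before Trizol extraction, and sequencing was done by a company. The authors deposited raw read counts per gene, whole numbers with no normalization. The submitters' processing notes name STAR, featureCounts and DESeq2, without versions, and the build GRCh38, a human build name, whereas the gene identifiers and coordinates in the table are mouse and were those of GENCODE M21 for the 10 genes. Use of strand is not given in the sources used here. Total counts per library were 25482686 to 34626720. All 60 pairs of libraries of a genotype differed by more than sampling noise (mean chi-square per gene 6.89 to 42.6), so each library was counted as a sample.

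Counts of all 24 libraries were fitted together by quasi-likelihood in edgeR 4.0.16 (R 4.3.3), with TMM, filterByExpr and robust dispersions. The design had 4 genotype means plus sex. Calls needed a p of at most 0.05 after Benjamini-Hochberg adjustment across the 19667 genes. Each SE is the size of the log2 fold change over the square root of its F. The pipeline was tested on simulated data. Alternatives were other scalings, filters, DESeq2 1.42.0, limma-voom (limma 3.58.1), no sex term, fewer libraries, and, chosen after seeing the data, the cortical covariate and the omission of libraries high in cortical or choroid plexus markers. The 10 genes and all lists were chosen with earlier results of these data known. The named genes were the 10, the 2 of smallest p in each pathway list, and the most similar gene to each; others (such as Foxo1, Aldh1a1, Rbp4, Cyp26b1, Dlx and receptor genes) were chosen after their values were seen. The retinoid motif was chosen knowing of the Rarb element. No gene set was tested.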

Additional observations from a re-analysis of the deposited data

How the results depend on the processing

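Of 540 planned values from other scalings, filters, tools and subsets, 498 kept their direction and side of the threshold, 26 changed direction, 13 lost and 3 gained a call. Among 150 values from the alternatives added after seeing the data, these were 119, 19, 7 and 5. The causes were not tested. In Q175 against WT the 2 called genes became 0 with library size only, without a filter, in females alone and without the libraries high in choroid plexus markers, 1 in males alone and 4 with the cortical covariate, and 0 to 2 with 1 library left out. In Q175_TyrobpKO against TyrobpKO the 1 call became 0 without a filter, in males or females alone, with the covariate and without the libraries high in cortical or choroid plexus markers, and was 0 to 1 with 1 library left out. For carriers the 2 calls became 0 in males, 1 in females, 4 with the covariate and 1 without the libraries high in choroid plexus markers, that 1 being Zfp503, and were 3, with Zfp503 added, with library size only and by DESeq2, and 2 to 3 with 1 library left out. TyrobpKO against WT had 1 call in males alone, Bcl11b at −0.53.

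Calls over all genes differed by more than 1.5 times in some settings. Q175 against WT, with 1893, had 759 in males, 187 in females and 1186 without the libraries high in choroid plexus markers. Q175_TyrobpKO against TyrobpKO, with 1153, had 1736 with library size only, 104 in males, 290 in females, 274 without the libraries high in cortical markers and 493 without those high in choroid plexus markers. Carriers, with 3544, had 1242 in males, 1195 in females and 2226 without the libraries high in cortical markers. TyrobpKO against WT, with 23, had 65 in males, 8 in females and 11 without the libraries high in cortical markers. Q175_TyrobpKO against Q175, with 31, had 52 by DESeq2, 11 in either sex alone, and 13 and 14 without the libraries high in cortical and choroid plexus markers. The interaction of Q175 and Tyrobp, with 0, had 2 by DESeq2, 1 by limma-voom and 2 with the covariate. Library size only left 26.4% of calls lower in Q175_TyrobpKO against TyrobpKO and 26.9% in carriers, against 52.6% and 50.9%.

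The log2 values that changed direction were these. In males alone, Q175 against WT was −0.11 for Foxp2 and −0.0769 for Zfp503. Q175_TyrobpKO against TyrobpKO was 0.0753 for Foxp1, 0.10 for Bcl11b, 0.16 for Meis2, 0.18 for Rarb and 0.0416 for Ikzf1, and Q175_TyrobpKO against Q175 was 0.0727 for Foxp1 and 0.0258 for Bcl11b. In females alone, Ikzf1 was 0.19 in Q175 against WT. Foxp2, Ebf1 and Six3 were −0.0502, −0.0378 and −0.15 in Q175_TyrobpKO against TyrobpKO, and Ebf1, Ikzf1 and Six3 were −0.0146, 0.0698 and −0.14 in carriers. In TyrobpKO against WT the female values were 0.000868 for Foxp1, 0.0343 for Foxp2, 0.0562 for Bcl11b, 0.00945 for Ebf1, 0.0147 for Meis2, 0.11 for Ikzf1 and 0.0115 for Six3. With library size only, Rarb and Ikzf1 were 0.0292 and 0.0542 in Q175_TyrobpKO against TyrobpKO, and Ikzf1 was 0.0222 in carriers. With the covariate, Ebf1 was −0.0354 in Q175 against WT, Foxp2 and Six3 were −0.00836 and −0.0614 in Q175_TyrobpKO against TyrobpKO, Ebf1 and Six3 were −0.0126 and −0.14 in carriers, and Foxp1, Bcl11b and Six3 were 0.0354, 0.0286 and 0.0183 in Q175_TyrobpKO against Q175. Without the libraries above 700 CPM of cortical markers, Bcl11b, Ebf1 and Six3 were 0.0289, 0.0305 and 0.00279 in TyrobpKO against WT, and in Q175_TyrobpKO against Q175 Foxp1 was 0.17, Bcl11b 0.12, Ebf1 0.0169, Meis2 0.10, Rarb 0.0315 and Six3 0.23. Without those above 900 CPM of choroid plexus markers, Six3 was −0.00363 in carriers and Foxp1 0.0261 in Q175_TyrobpKO against Q175.

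With 1 library left out, the values that changed direction ranged as follows. In Q175 against WT, Ebf1 ran from −0.0449 to 0.0872, Ikzf1 from −0.14 to 0.00939, Six3 from −0.19 to 0.0022, Foxp2 from −0.0109 to 0.13 and Zfp503 from −0.0221 to 0.12. In Q175_TyrobpKO against TyrobpKO, Ikzf1 ran from −0.0872 to 0.0766 and Rarb from −0.11 to 0.0701, and in carriers Ikzf1 ran from −0.0776 to 0.00577 and Six3 from −0.0359 to 0.10. In Q175_TyrobpKO against Q175, Foxp1 ran from −0.0695 to 0.0409, Bcl11b from −0.0847 to 0.027, Ebf1 from −0.13 to 0.00144 and Six3 from −0.22 to 0.0226. No paired analysis was possible because the labels carry no replicate numbers and those used here only name animals. Fits of the compared groups alone were not run for carriers, sex or the interactions, and the interaction with sex was not run within 1 sex, without a sex term or without the libraries high in cortical markers. Depth limits these values little: the lowest gene, Ikzf1, had at least 193 reads in each library.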
